A study of Mus musculus with 12 samples.

Results

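The scavenger receptors and border macrophage markers described here are 10 genes, Mrc1, Stab1, Folr2, F13a1, Pf4, Cbr2, Lyve1, Cd163, Cd36 and Msr1, of 55487 genes in the count table. They were chosen by name, with earlier results of these data known, and found by their Ensembl identifiers, and all 10 were present. RNA-seq was performed on 12 libraries of microglia sorted at postnatal day 13 from the brain (BF/striatum) of YARG mice, in which a YFP reporter was inserted behind the coding sequence of Arg1. All groups carried this reporter, and none had a deletion or a treatment. ARG1+ and ARG1- microglia differed in YFP fluorescence, and each population had 3 female and 3 male libraries. By the study's methods each replicate pooled the brains of several mice, with 3 litters per sex, and both populations were sorted from such pools, so ARG1+ and ARG1- libraries may share litters, but the labels do not say which libraries do. All cells were gated as CX3CR1 positive and CD206 negative, where CD206 is the protein product of Mrc1, 1 of the 10 genes, so the gate had removed cells with that protein at the surface.

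Border macrophages are the resident macrophages of the meninges, perivascular spaces and choroid plexus, and they are distinguished from parenchymal microglia by surface receptors and secreted factors that microglia express little or not at all. Scavenger receptors are a structurally mixed class of membrane proteins that bind modified lipoproteins, sugars, damaged proteins and apoptotic cells and carry them into lysosomes. In the brain, border macrophages are rich in several of them, whereas microglia raise some when they take up lipid or debris.

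Folr2 and Stab1 were expressed more highly in ARG1+ microglia, by 3.02-fold and 1.77-fold, and they were the 2 of the 10 genes whose difference passed the test. No member was called lower. Mrc1 and Stab1 were abundant in both populations, Lyve1 and Cd163 were at 0 in most libraries, and the remaining members lay at low levels with wide spread between libraries. Among all 16908 genes tested with edgeR's quasi-likelihood test and Benjamini-Hochberg adjustment, 15.9% differed between the populations, 6.44% were higher in ARG1+ microglia and 9.42% lower. The filter on low counts kept 8 of the 10 members, and the 2 called higher compare with that share of 6.44%. The median log2 fold change of the 8 was 0.74, against 0.06 over all genes tested. As the members were chosen with earlier results of these data known, these comparisons describe them and do not test them. The median also includes F13a1, Pf4, Cd36 and Msr1, whose SEs were 0.93 to 1.52 log2 units.

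Sequencing depth was 28356659 to 60625170 counts per library, so 3 counts, below which a gene was read as not detected, corresponded to 0.0511 to 0.102 CPM (counts relative to the library total, scaled so that libraries can be compared). The libraries came from amplified cDNA without molecular identifiers, so such limits cover counting error only. Arg1 itself had 52 counts in ARG1+ female replicate 15, 2 in ARG1+ female replicate 8 and 0 in the other 10 libraries, so the names ARG1+ and ARG1- refer to the YFP gate and the Arg1 transcript does not check the labels. Mitochondrial genes took 0.247 to 0.636% of counts in ARG1- and 0.147 to 0.396% in ARG1+ libraries. As each library held RNA of pooled mice, p-values measured the spread between libraries, with libraries of the same litter treated as separate. In such bulk libraries, fewer cells of a type and less RNA per cell cannot be told apart.

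Promoter windows of the 2 members that passed the test are shown with that of Mrc1, the other abundant member, which did not pass. Each window holds the 250 bases before a RefSeq transcription start in GRCm38.p6, written 5′ to 3′ in the direction of the gene. Capitals mark matches on either strand to GAGGAA, the core of sites for the macrophage factor PU.1, or to TGACTCA, the AP-1 motif. Stab1 lies on the minus strand with its window at chr14:31168642-31168891. Folr2, also on the minus strand, has 2 starts with windows at chr7:101857191-101857440 and chr7:101845332-101845581. Mrc1 lies on the plus strand with its window at chr2:14229164-14229413.
Stab1: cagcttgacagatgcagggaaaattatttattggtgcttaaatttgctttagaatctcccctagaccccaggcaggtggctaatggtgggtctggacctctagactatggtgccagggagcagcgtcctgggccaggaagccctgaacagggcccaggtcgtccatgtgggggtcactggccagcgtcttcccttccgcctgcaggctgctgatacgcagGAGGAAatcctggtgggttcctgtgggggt
Folr2 start 1: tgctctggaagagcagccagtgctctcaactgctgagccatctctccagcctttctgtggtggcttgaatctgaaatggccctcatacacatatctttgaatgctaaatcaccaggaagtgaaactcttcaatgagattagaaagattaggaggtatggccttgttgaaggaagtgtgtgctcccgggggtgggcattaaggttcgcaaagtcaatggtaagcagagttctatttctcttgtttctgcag
Folr2 start 2: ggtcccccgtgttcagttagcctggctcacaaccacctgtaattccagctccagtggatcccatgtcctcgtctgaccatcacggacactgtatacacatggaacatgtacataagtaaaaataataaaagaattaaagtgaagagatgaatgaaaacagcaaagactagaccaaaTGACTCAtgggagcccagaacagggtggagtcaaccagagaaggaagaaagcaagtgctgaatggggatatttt
Mrc1: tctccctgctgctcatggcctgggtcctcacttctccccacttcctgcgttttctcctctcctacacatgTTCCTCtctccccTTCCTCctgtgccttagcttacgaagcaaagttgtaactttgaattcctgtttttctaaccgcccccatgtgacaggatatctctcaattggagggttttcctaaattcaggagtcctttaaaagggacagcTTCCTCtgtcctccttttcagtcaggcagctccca

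The Stab1 window held 1 match to GAGGAA, the Mrc1 window 3, and neither Folr2 window any, while the window of the second Folr2 start held 1 match to TGACTCA. RefSeq windows were matched for 8 of the 10 members and gave 10 windows, of which 5 held GAGGAA, against 23.3% of all 32851 promoters of the same length. TGACTCA stood in 1 of the 10 and in 4.46% of all. TGCTGAC, the core of MAF sites, and CACGTG, the E-box, stood in 0 of the 10 and in 3.81% and 6.02% of all, respectively. The motifs were searched on both strands, and no match overlapped another.

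Per length, Stab1 and Mrc1 were the leading members in both populations. In ARG1- microglia the mean level was 23.2 ± 7.32 CPM per kilobase for Stab1 and 19.1 ± 2.52 for Mrc1 (SD, n = 6), at the 86.5th and 83.7th percentile of genes tested. These 2 levels lay within their spread of each other. Cbr2, Folr2 and Cd36 followed at 2.57, 1.84 and 1.45 CPM per kilobase, then Pf4 at 0.782, F13a1 at 0.414 and Msr1 at 0.171. In ARG1+ microglia the order was Stab1 at 41.9 ± 13.4, Mrc1 at 23.1 ± 7.28, Folr2 at 5.44 ± 2.57, Cd36 at 4.20 ± 4.12, Cbr2 at 1.497 ± 1.05 and Pf4 at 1.43 ± 1.55. Msr1 at 0.717 and F13a1 at 0.286 closed the order of genes that passed the filter. Folr2 and Cd36 thus stood above Cbr2 in ARG1+ and below it in ARG1- microglia, while neighbors among Cbr2, Folr2, Cd36 and Pf4 lay within their SDs in both populations. Between Stab1 and Mrc1 the gap in ARG1+ microglia exceeded either SD.

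**Figure D1:**
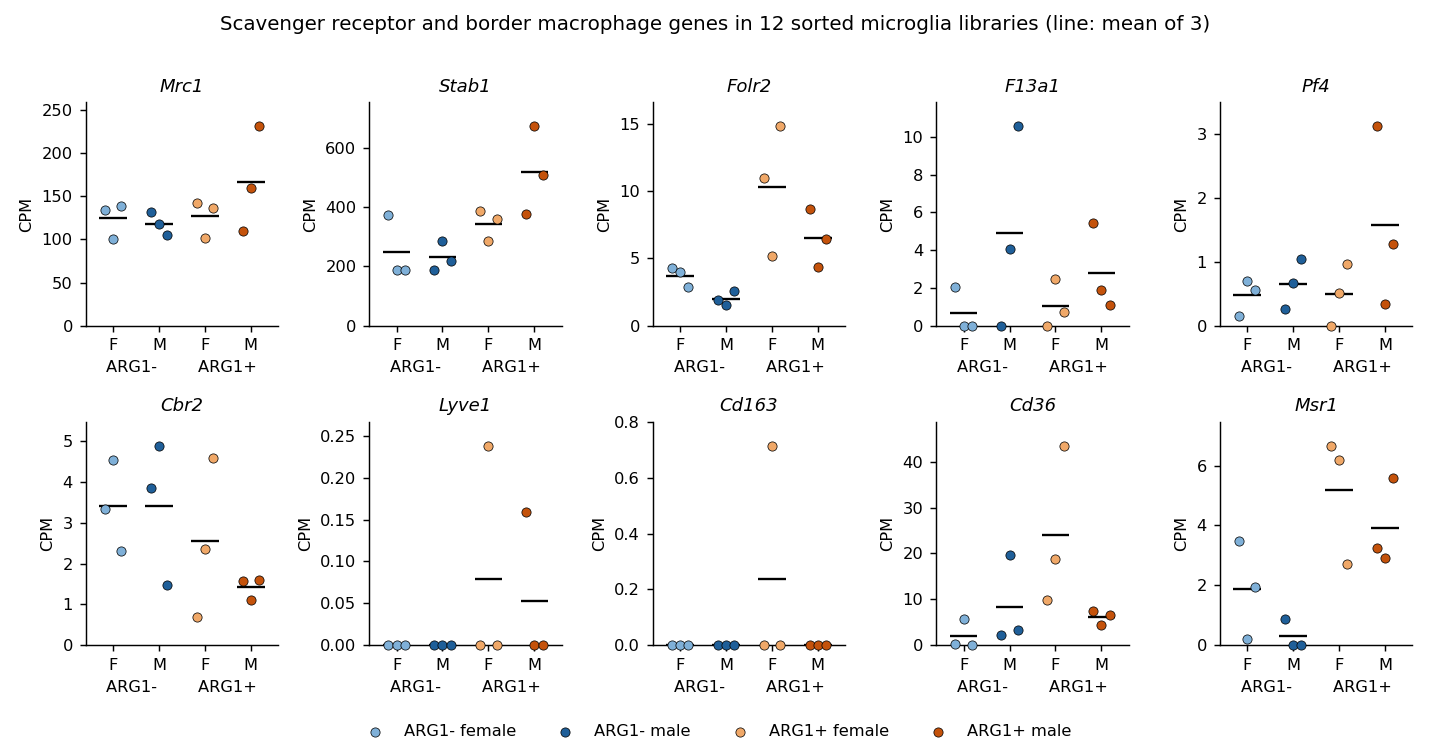
Level of each of the 10 genes in CPM (vertical axes, linear and scaled per gene) in the 12 libraries, by population and sex (F female, M male); points are libraries and lines are means of 3. Folr2 in every ARG1+ library (4.37 or more) lay above every ARG1- library (4.29 or less), whereas Lyve1 and Cd163 were above 0 in 2 libraries and 1 library.

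Stab1 (ENSMUSG00000042286, GRCm38 chr14:31139013-31168641, minus strand) encodes stabilin-1, a large scavenger receptor that takes up modified lipoproteins and matrix proteins and recognizes apoptotic cells. It measured 371, 187 and 187 CPM in the ARG1- female and 186, 285 and 218 CPM in the ARG1- male libraries. ARG1+ libraries held 385, 286 and 359 CPM in females and 377, 672 and 507 CPM in males. ARG1- female replicate 1 lay above 2 of the 6 ARG1+ libraries, so the groups overlapped, although the medians were 202 and 381 CPM. The log2 fold change was 0.82 (SE 0.23, 95% interval 0.33 to 1.31, adjusted p = 0.0277). Stab1 kept its call in 5 of the 12 fits that left out 1 library, with log2 fold changes of 0.71 to 1.04 and adjusted p-values of 0.00257 to 0.0621. It was lost without ARG1- female replicate 2 or 13, ARG1- male replicate 5 or 14, ARG1+ female replicate 7, or ARG1+ male replicate 12 or 16.

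Exons of Stab1 add up to 10288 bases, and fold changes over all genes tested differed with exon length. The median log2 fold change was 0.36 over the 2211 genes with over 8 kilobases of exons, where 15.9% were called higher and 1.72% lower, and -0.24 over the 2484 genes with more than 1 and at most 2 kilobases, where 3.10% and 18.2% were called. Stab1 exceeded 79.6% of the genes of its own length class. When a trend on exon length was removed from each library, its log2 fold change fell to 0.60 with an adjusted p of 0.0678 in the same edgeR test. Folr2, with 1546 bases of exons, exceeded 89.7% of its class and measured 1.72 (adjusted p = 0.00337) after the same step. The call of Stab1 therefore depended on this step and that of Folr2 did not.

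**Figure D2:**
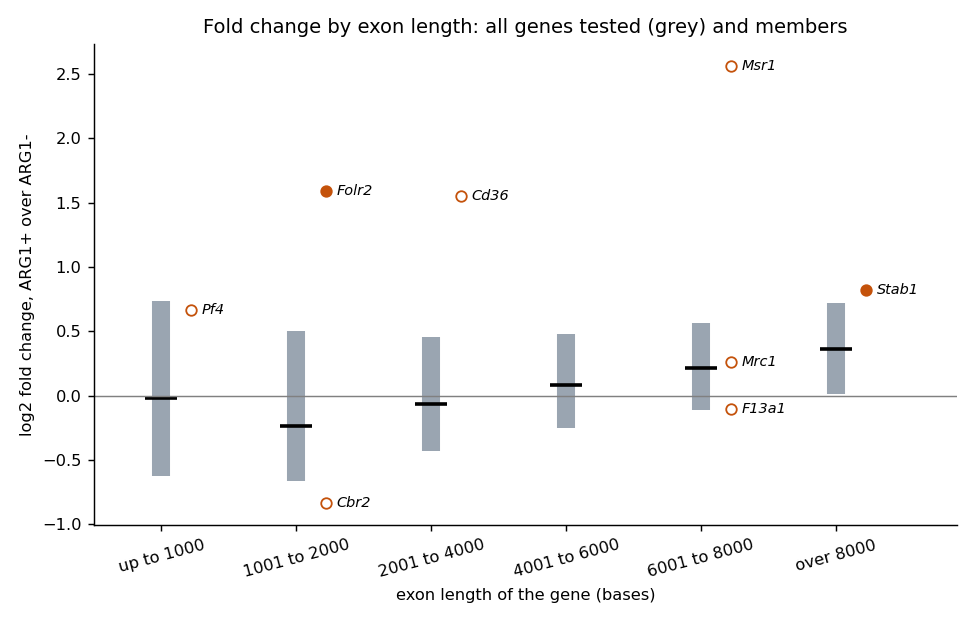
Log2 fold change of ARG1+ over ARG1- microglia (vertical axis) by exon length class in bases (horizontal axis); grey bars span the middle 50% of all genes tested, black lines are medians, and circles are members, filled where adjusted p was under 0.05. Medians lay between -0.24 and 0.36, with Folr2 above the grey bar of a class of short genes and Stab1 just above that of the longest.

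Folr2 (ENSMUSG00000032725, chr7:101839988-101857194, minus strand) encodes folate receptor beta, a membrane-anchored folate carrier of tissue macrophages, border macrophages among them. Its level was 4.29, 3.97 and 2.83 CPM in ARG1- females and 1.88, 1.54 and 2.55 CPM in ARG1- males. In ARG1+ libraries it was 11.01, 5.14 and 14.8 CPM in females and 8.68, 4.37 and 6.43 CPM in males. Every ARG1+ library lay above every ARG1- library, by a narrow margin of 4.37 against 4.29 CPM. Of all genes tested 3.48% were separated in this direction, and Folr2 was the 1 member that was. The log2 fold change was 1.59 (SE 0.31, 95% interval 0.91 to 2.27, adjusted p = 0.00555). It passed the test in 12 of 12 fits without 1 library, at 1.47 to 1.77 and adjusted p-values of 0.00592 to 0.0181. By group, means ran from 1.99 ± 0.513 CPM in ARG1- males through 3.70 ± 0.769 in ARG1- females and 6.50 ± 2.16 in ARG1+ males to 10.3 ± 4.87 in ARG1+ females (SD, n = 3).

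The exons of Folr2 share 975 bases, 63.1% of their length, with Gm10602 (ENSMUSG00000073985, chr7:101836503-101842771), an antisense gene on the plus strand. Gm10602 rose from 4.69 ± 1.62 to 10.1 ± 3.56 CPM (SD, n = 6), or 1.11 log2 units (SE 0.28, adjusted p = 0.0195). Whether reads were counted by strand was not given in the sources used here, and without strand the reads of these 2 genes cannot be told apart. For Stab1 the overlap with a neighbor on the other strand was 112 bases, or 1.09% of its exons, and that neighbor, Nt5dc2, measured a log2 fold change of -0.25 (adjusted p = 0.329).

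Mrc1 (ENSMUSG00000026712, chr2:14229392-14332057, plus strand) encodes CD206, the mannose receptor, which binds mannose-bearing glycoproteins and microbial sugars. Despite the gate against CD206, Mrc1 held 135, 100 and 138 CPM in ARG1- females, 132, 118 and 105 in ARG1- males, 143, 102 and 137 in ARG1+ females and 110, 160 and 231 in ARG1+ males. The transcript was therefore present in all 12 libraries, with ARG1+ male replicate 16 at the top and the other 5 ARG1+ libraries spread across and just above the ARG1- range. The log2 fold change was 0.26 (SE 0.18, 95% interval -0.13 to 0.66, adjusted p = 0.371). Leaving out ARG1+ male replicate 16 brought it to 0.12. CD206 positive cells were not analysed here.

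Of the other intracellular and secreted border macrophage markers, F13a1 (ENSMUSG00000039109, chr13:36867178-37050244) encodes the A subunit of coagulation factor XIII, which crosslinks fibrin. It was at 0 in 4 libraries, and the highest level, 10.6 CPM, stood in ARG1- male replicate 14, followed by 5.43 CPM in ARG1+ male replicate 11. Levels ranged from 0 to 10.6 CPM with a median of 1.04 in ARG1- and from 0 to 5.43 CPM with a median of 1.48 in ARG1+ microglia. The range of the ARG1+ libraries lay within that of the ARG1- libraries, and the log2 fold change of -0.10 had a 95% interval of -3.41 to 3.20 (adjusted p = 0.976). Its sign turned in 5 of 12 fits without 1 library.

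Pf4 (ENSMUSG00000029373, chr5:90772435-90773383) encodes a chemokine of platelet granules that border macrophages also produce. It ranged from 0.150 to 1.04 CPM (median 0.616) in ARG1- and from 0 to 3.11 CPM (median 0.740) in ARG1+ libraries, with the top value in ARG1+ male replicate 11. The log2 fold change was 0.67 (SE 0.93, 95% interval -1.34 to 2.68, adjusted p = 0.687), and 0.19 without that library. The same library was thus the highest ARG1+ library for both F13a1 and Pf4, as ARG1- male replicate 14 was among ARG1- libraries. Platelet and megakaryocyte genes other than Pf4 summed to 20.4 to 39.4 CPM in ARG1- and 10.6 to 21.05 CPM in ARG1+ libraries, with 1 of the 3 tested called lower (Gp9) and Ppbp and Gp6 at or under 3 counts throughout. The part of platelet RNA in the Pf4 level was not tested.

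Cbr2 (ENSMUSG00000025150, chr11:120729489-120732114) encodes a carbonyl reductase found in some macrophages, and its fitted difference was the most negative of the members. ARG1- libraries held 3.33, 4.54 and 2.32 CPM in females and 3.86, 4.89 and 1.48 in males, whereas ARG1+ libraries held 0.698, 2.35 and 4.59 in females and 1.57, 1.11 and 1.60 in males. ARG1+ female replicate 15, the library with the highest Folr2, lay among the ARG1- values, and ARG1- male replicate 14 lay among the ARG1+ values. The log2 fold change was -0.83 (SE 0.48, 95% interval -1.88 to 0.21, adjusted p = 0.281), so a difference was not detectable with this spread. Without ARG1+ female replicate 15 it was -1.19 and also did not pass.

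Lyve1 and Cd163 are among the receptors used to mark perivascular and meningeal macrophages, the first binding hyaluronan and the second taking up haptoglobin-hemoglobin complexes. Lyve1 (ENSMUSG00000030787, chr7:110850607-110863239) had 7 counts in ARG1+ female replicate 8 and 7 in ARG1+ male replicate 11, or 0.238 and 0.159 CPM, and 0 in the other 10 libraries. Cd163 (ENSMUSG00000008845, chr6:124304656-124330527) had 21 counts in ARG1+ female replicate 8, or 0.715 CPM, and 0 in the other 11. Neither gene passed the filter. In ARG1- libraries a count of 0 allows at most 0.0511 to 0.100 CPM. Both genes were thus at 0 in every ARG1- library and in 4 of 6 ARG1+ libraries, next to 186 CPM or more of Stab1 and 100 CPM or more of Mrc1 in each of them. A fit in edgeR without the 2 libraries that had these counts was chosen after seeing the data. In it the log2 fold change of Stab1 was 0.99 (adjusted p = 0.0282), against 0.82 with all 12 libraries. That of Folr2 was 1.64 (adjusted p = 0.00915), against 1.59. Mrc1 measured 0.46 (adjusted p = 0.0980) in the fit without them. Counts of 7 to 21 are too few to sort libraries by their content of border macrophages, and the part of such cells in these levels was not tested.

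Cd36 and Msr1 are scavenger receptors of lipid uptake. Cd36 (ENSMUSG00000002944, chr5:17781690-17888801), a class B receptor for oxidized lipoproteins and long-chain fatty acids, ranged from 0 CPM in ARG1- female replicate 13 to 43.5 CPM in ARG1+ female replicate 15. ARG1- libraries measured 0.300, 5.74 and 0 CPM in females and 2.17, 19.7 and 3.26 in males, and ARG1+ libraries 9.80, 18.9 and 43.5 in females and 7.41, 4.45 and 6.46 in males. The 3 ARG1+ female libraries lay above the 3 ARG1- female libraries, while in males ARG1- replicate 6 lay above every ARG1+ library. The log2 fold change over both sexes was 1.55 (SE 1.32, 95% interval -1.32 to 4.43, adjusted p = 0.482). It was 2.47 without ARG1- male replicate 6 and 0.91 without ARG1- female replicate 13, and passed in neither.

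Msr1 (ENSMUSG00000025044, chr8:39581685-39642673) encodes the class A scavenger receptor CD204, which binds modified low-density lipoprotein. It measured 3.48, 0.200 and 1.94 CPM in ARG1- females and 0.873, 0 and 0 in ARG1- males, the latter 2 with no counts at all. ARG1+ libraries held 6.66, 6.20 and 2.71 CPM in females and 3.25, 2.90 and 5.57 in males, with 95 to 210 counts each. Every ARG1+ library therefore exceeded 5 of the 6 ARG1- libraries, and ARG1- female replicate 1 lay above 3 of them. Msr1 had the largest fitted difference, a log2 fold change of 2.56 (SE 1.08, 95% interval 0.22 to 4.90). Its unadjusted p of 0.0344 became 0.134 after adjustment, so it did not pass in edgeR's quasi-likelihood test, whereas DESeq2 gave 2.63 with an adjusted p of 0.0298. ARG1- female replicate 1 was the highest ARG1- library for Stab1, Folr2 and Msr1 alike, and without it Msr1 measured 3.04 (adjusted p = 0.0909).

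**Figure D3:**
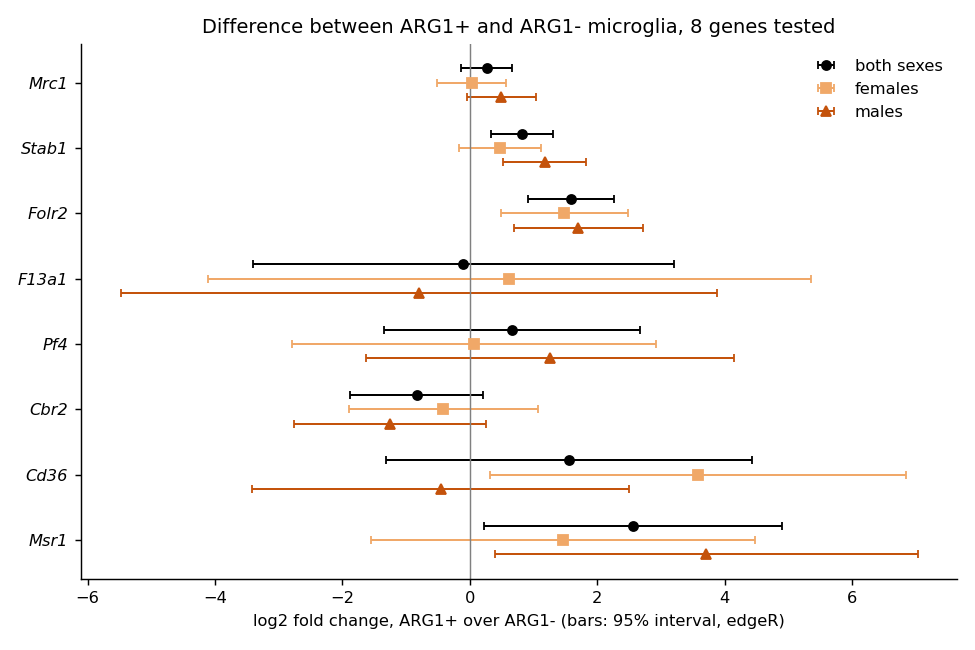
Log2 fold change of ARG1+ over ARG1- microglia (horizontal axis) for the 8 genes tested, over both sexes (black circles), in females (squares) and in males (triangles), with 95% intervals from edgeR as bars. The intervals over both sexes lay above 0 for Stab1 (0.33 to 1.31), Folr2 (0.91 to 2.27) and Msr1 (0.22 to 4.90), and those of the other 5 genes included 0.

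The populations were also compared within each sex, with 3 libraries against 3. In females 0 of the 8 members passed in edgeR's test, where 6.76% of all genes did. DESeq2 called 1 (Folr2), but its share of all genes within females was not counted. At an unadjusted p under 0.05 there were 2 members, a limit at which all genes were not counted. Folr2 was 1.48 log2 units higher in ARG1+ females (SE 0.45, adjusted p = 0.0753) and Cd36 3.58 (SE 1.49, adjusted p = 0.175). In males 1 member passed, Stab1 at 1.18 (SE 0.30, 95% interval 0.53 to 1.83, adjusted p = 0.0455), against 5.13% of all genes. Folr2 in males was close to its value in females, at 1.71 (SE 0.46, adjusted p = 0.0556), and Msr1 was 3.71 (SE 1.51, adjusted p = 0.171). Cd36 passed in females when ARG1- female replicate 2, its highest ARG1- female library, was left out. The call of Stab1 in males was kept in 3 of 12 fits without 1 library, those without ARG1- female replicate 1 or 13 or ARG1+ male replicate 11, and was lost in the other 9 and in a fit of the 6 male libraries alone. Without ARG1- male replicate 5 Msr1 passed in its place, and with the exon-length trend removed Folr2 did.

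The difference between these sex-specific effects was tested as an interaction, which passed for 0 members and for 0% of all genes. At an unadjusted p under 0.05 there were 0 members and 1576 of all genes, and DESeq2 called 0 members. For Stab1 the effect in females minus that in males was -0.71 log2 units (95% interval -1.62 to 0.20, adjusted p = 0.645). Cd36 had an interaction of 4.03 (95% interval -0.30 to 8.37, adjusted p = 0.566), from a positive value in females and -0.45 in males. These intervals leave room for sizeable differences between the sexes in either gene. For Folr2, whose values in the 2 sexes were alike, the interaction was -0.22 (95% interval -1.61 to 1.16, adjusted p = 0.980).

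Females and males, compared over both populations, differed in 0 members and 0.0355% of all genes, and DESeq2 called 0 members. At an unadjusted p under 0.05 there were 1 member and 519 of the 16908 genes tested. That member was Folr2, which was 0.78 log2 units higher in females (95% interval 0.11 to 1.45, unadjusted p = 0.0256, adjusted p = 1). Its female libraries held 2.83 to 14.8 CPM and its male libraries 1.54 to 8.68 CPM.

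A wider list of 20 further border macrophage genes, chosen with earlier results of these data known, was described next to the members. Siglec1, Ms4a7, Ms4a4a, Dab2, Tgfbi, Ednrb and Lilra5 were added to it after seeing the data. The comparison with all genes therefore describes the list and does not test it. Of the 20 genes 16 were tested, of which 3 were higher in ARG1+ microglia and 0 lower, against 6.44% and 9.42% of all genes tested. Their median log2 fold change was 0.46. Slc40a1, the iron exporter ferroportin, rose from 443 ± 26.7 to 607 ± 91.5 CPM (SD, n = 6, log2 fold change 0.45, SE 0.10, adjusted p = 0.0122), and with 9000 bases of exons it is also in the longest class and did not pass once the exon-length trend was removed. Cd38, an enzyme that consumes NAD, had 2 counts over all ARG1- and 358 over all ARG1+ libraries (adjusted p = 0.00130). Clec4n, a C-type lectin for fungal sugars, had 0 counts in ARG1- and 204 in ARG1+ libraries and was at least 10.2-fold higher against a floor of 3 counts per library (adjusted p = 0.0151). Its ARG1+ libraries ranged from 0 to 135 counts, so its level was carried unevenly, and it did not pass without the 2 libraries that had counts of Lyve1 or Cd163. Cd38 and Clec4n passed the filter on low counts through their ARG1+ libraries alone, so they could hardly have been called lower. With at least 10 counts required in every library neither was tested, and Slc40a1 was the gene of the list that passed. The other genes of the highest mean level, Gas6, a bridging ligand for apoptotic cell uptake, and Hpgd, which breaks down prostaglandins, measured log2 fold changes of -0.25 (adjusted p = 0.0754) and -0.36 (adjusted p = 0.0968). Summed, the 20 genes made 1769 to 1870 CPM in ARG1- and 1819 to 2015 CPM in ARG1+ libraries, and Cd209b, Cd209f and Cd209g, lectins of border macrophages, were at or under 3 counts in all. Most of these sums came from Slc40a1, Gas6 (means of 678 CPM in ARG1- and 570 in ARG1+) and Hpgd (368 and 285). The sums therefore say little about the sparse genes of the list.

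Of 15 other scavenger receptors, 10 were tested, of which 2 were higher and 0 lower in ARG1+ microglia, against 6.44% and 9.42% of all genes. Their median log2 fold change was 0.80. This list too was chosen with earlier results of these data known, so these numbers describe it and do not test it. Lrp1, a large endocytic receptor for lipoproteins and protease complexes, rose from 474 ± 128 to 966 ± 175 CPM (log2 fold change 1.02, SE 0.19, adjusted p = 0.00395). Its exons of 17717 bases put it in the longest class, and it kept its call once the exon-length trend was removed. Colec12, a collectin-type scavenger receptor, had 3 counts over all ARG1- libraries and 738 over all ARG1+ libraries, at 3.40 ± 1.35 CPM in the latter (adjusted p = 6.8e-04). Like Cd38 and Clec4n, Colec12 passed the filter through its ARG1+ libraries alone. With at least 10 counts required in every library it was not tested, and Lrp1 was the receptor of the list that passed. The abundant lysosomal members did not pass, with log2 fold changes of -0.19 (adjusted p = 0.142) for Cd68 and 0.18 (adjusted p = 0.280) for Scarb2. Stab2, the paralog of Stab1, and Megf10, Scara3 and Scara5 were at or under 3 counts in every library.

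Markers of microglia and of other cells were summed to show what else the libraries held. The 11 microglia genes made 63754 to 89268 CPM in ARG1- and 54015 to 66514 CPM in ARG1+ libraries, and 7 of the 11 were lower and 1 higher in ARG1+ microglia. The 8 members that mark border macrophages summed to 296 to 516 CPM and 399 to 840 CPM, almost all of it Stab1 and Mrc1. Monocyte genes stood at 5.12 to 14.1 CPM and 3.70 to 7.77 CPM, with 1 of 4 tested higher and 1 lower and Ly6c2 and Chil3 at or under 3 counts. The higher gene, Fn1, had 0 counts over all ARG1- and 168 over all ARG1+ libraries. Fn1 thus passed the filter on low counts through its ARG1+ libraries alone. The lower gene, Plac8, had 1640 and 291 counts. Endothelial genes stood at 29.8 to 61.8 CPM and 39.6 to 84.8 CPM, made mostly of Pecam1, with 0 of 4 tested called. Cldn5, a defining gene, was at 0 in all libraries. Cdh5 reached at least 0.268 CPM in every ARG1- and 0.313 CPM in every ARG1+ library. Flt1 had means of 0.551 and 2.38 CPM, and Cdh5 of 1.22 and 0.751 CPM, in ARG1- and ARG1+ libraries. For genes of lymphatic endothelium, which also expresses Lyve1, the sums were 1.27 to 28.3 CPM and 14.02 to 28.7 CPM, made mostly of Prox1, with Flt4, Pdpn and Ccl21a at or under 3 counts. Fibroblast, neutrophil and lymphocyte genes summed to at most 5.45, 3.31 and 4.32 CPM in any library. Of 2 fibroblast genes tested, 1 was higher in ARG1+ microglia, Col1a2, a collagen chain, with 2 counts over all ARG1- and 80 over all ARG1+ libraries (adjusted p = 0.0170). Col1a2 also passed the filter through its ARG1+ libraries alone. Astrocyte, oligodendrocyte and erythroid genes were summed to 168 to 214, 79.2 to 171 and 3.69 to 17.7 CPM in ARG1- libraries, and to 127 to 148, 56.5 to 119 and 0 to 3.39 CPM in ARG1+ libraries. Of the 5 genes of each list, 1 astrocyte and 1 erythroid gene were lower in ARG1+ microglia and 0 oligodendrocyte genes were called. The erythroid gene, Hbb-bt, had 174 counts over all ARG1- and 4 over all ARG1+ libraries. Hbb-bt thus passed the filter through its ARG1- libraries alone. Neuron genes stood at 4.24 to 13.1 CPM and 1.81 to 6.32 CPM. The part of these cells in the levels of Stab1 and Folr2 was not tested.

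**Figure D4:**
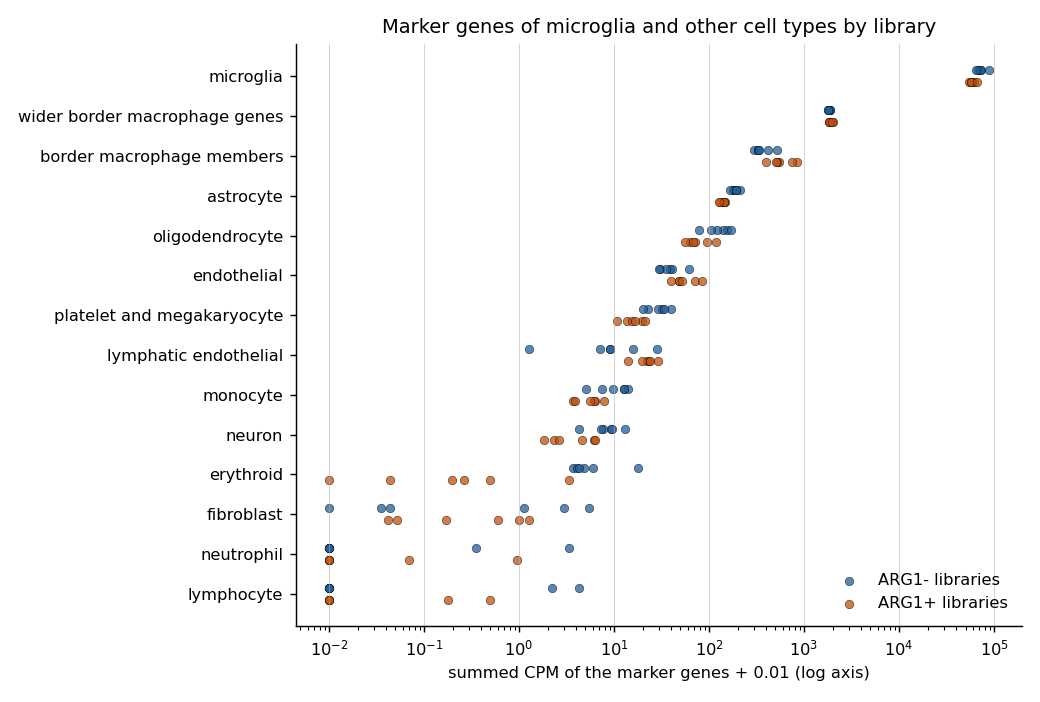
Summed CPM of marker genes, plus 0.01, on a log axis (horizontal) for microglia, border macrophages and other cell types (rows); each point is 1 library, blue for ARG1- and orange for ARG1+. Microglia genes reached 54015 CPM or more in every library, against 296 to 840 CPM for the 8 border macrophage members and at most 28.7 CPM for lymphatic endothelial genes.

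Genes whose levels varied most like each tested member were found by the root mean square (RMS) difference of centered log2 CPM over the 12 libraries. Mrc1 was nearest to Cep170 (RMS 0.18) and Cttnbp2nl (0.19), and Stab1 to Ep300 (0.21) and Man2a2 (0.22). Folr2 was nearest to Gm10602 (0.42), the antisense gene that overlaps it, and to Gm19582 (0.47). No other member was among the 2 nearest genes of any member. Cbr2 was nearest to Tbc1d10c (0.39), Pf4 to Naalad2 (0.78), Msr1 to 2210406H18Rik (0.85), F13a1 to Gm19187 (1.05) and Cd36 to Map7d3 (1.26). Such distances are not scaled by a gene's own spread over the libraries. That spread was an RMS of 0.32 for Mrc1 and 0.57 for Stab1, but 2.43 to 2.81 for Msr1, Cd36 and F13a1. The distances therefore do not rank how closely the members followed other genes. All these profiles share the same libraries and depths.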

How the data were processed

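RNA-seq was available for 12 libraries of sorted microglia, 3 for each sex of ARG1+ and ARG1- cells, grouped by the labels. Per the methods and processing notes, cDNA was made with SMART-Seq v4, libraries were prepared with Nextera XT, single-end reads were produced, and the authors used bcl2fastq 2.20.0, STAR 2.6.1d (GRCm38) and featureCounts 1.5.1. The authors deposited raw counts per gene, with no normalization. The annotation release and strand setting are not given in the sources used here. Counting on gene models can split reads between overlapping genes, and full-length cDNA chemistry makes counts grow with transcript length. The study compared populations with DESeq2 1.28.1.

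Symbols, positions and exon lengths came from GENCODE M21, which matched 55227 of 55487 identifiers. In R 4.3.3 with edgeR 4.0.16, 16908 genes passed filterByExpr, were normalized by TMM and were tested by the quasi-likelihood test (ARG1 status with sex as covariate, or 4 group means for effects within sex and their difference), with Benjamini-Hochberg adjustment over all genes and a limit of 0.05. CPM values use TMM-scaled library sizes. The steps were tested on simulated data. Total counts were 28356659 to 60625170 per library. Replicate libraries differed by 40.7 to 125 times the degrees of freedom in a chi-square of counts, so each counted as 1 replicate.

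The 10 members and all lists were chosen with earlier results of these data known. Genes named from the wider border macrophage and other scavenger receptor lists are those that passed the test and the 3 of highest mean level. Those at or under 3 counts in every library are named too. From the wider list, Siglec1, Ms4a7, Ms4a4a, Dab2, Tgfbi, Ednrb and Lilra5 were added after seeing the data. Likeness used a prior count of 2. Promoters came from RefSeq (GRCm38.p6). Alternatives were other normalizations (DESeq2 size factors, upper quartile, thinned counts), filters, a term for libraries numbered 13 to 16, no sex term, DESeq2 1.42.0, fits within 1 sex and leaving out each library, and, chosen after seeing the data, removal of a trend on exon length (mgcv 1.9.3) and of the 2 libraries with over 3 counts of Cd163 or Lyve1.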

Additional observations from a re-analysis of the deposited data

Results flagged for a closer look

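The members were searched in each population of 6 libraries for a library that stands far from the others by Dixon's criterion. Of 24 groups searched, which include the summed levels of 3 gene lists, 3 had such a library. The limit would give about 1.2 by chance if levels were normally distributed. Levels of the sparse members are skewed or mostly 0, so 3 cannot be set against 1.2. Cd36 measured 19.7 CPM in ARG1- male replicate 6, with the next ARG1- library at 5.74 CPM, and 43.5 CPM in ARG1+ female replicate 15, with the next ARG1+ library at 18.9 CPM. Cd163 measured 0.715 CPM in ARG1+ female replicate 8 and 0 in the other 5 ARG1+ libraries. Over both sexes Cd36 did not pass the test with or without either library, and Stab1 and Folr2 stood far out in none.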

How the results depend on the processing

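For the comparison of ARG1+ with ARG1- microglia over both sexes, Folr2 passed under every alternative run, and Stab1 failed with the exon-length trend removed, where 1 member passed, and in 7 of the fits without 1 library, which gave 1 to 2 members. In females, where 0 passed, 1 passed (Folr2) with at least 10 counts in every library and with DESeq2, and 0 to 1 passed without 1 library (Cd36 without ARG1- female replicate 2). In males, where 1 passed, 2 passed with at least 10 counts in every library (Folr2 and Stab1), 3 with DESeq2 (with Msr1), 0 with a term for libraries 13 to 16, 0 in the 6 male libraries alone and 0 to 1 without 1 library. Within each sex the share of all genes was counted in the main fit alone, at 6.76% in females and 5.13% in males. The counts of members under alternatives therefore have no share to be set against. With at least 10 counts in every library, 1 gene of the wider border macrophage list (Slc40a1) and 1 other scavenger receptor (Lrp1) passed, since the filter removed the genes near 0 in ARG1- microglia. DESeq2 called 6 of the wider list, 5 higher and 1 lower, with Dab2, Ms4a4a and Tgfbi beyond the 3 called in the main fit. Dab2, Ms4a4a and Tgfbi had been added to that list after seeing the data. F13a1 turned to 0.0497 (log2) with counts thinned to the smallest total and ranged from -0.84 to 1.23 without 1 library. Over all genes DESeq2 called 4105 of 28161, against 2682 of 16908, and 1753 passed without ARG1+ male replicate 12. Genes called higher were 1089 of 2682, and 2141 of 4105 with DESeq2. Where a cause is not named it was not tested. No paired analysis was possible because the groups share no replicate numbers and the labels do not tie libraries to litters, so shared litters are not modeled. Depth and spread limit the sparse members, as the SEs of F13a1, Pf4, Cd36 and Msr1, 0.93 to 1.52 log2 units, exceeded the difference of 0.82 found for Stab1.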
